A study of Mus musculus with 12 samples.

Results

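The L1 family and related neural adhesion molecules were examined as 7 genes: L1cam, Chl1, Nrcam and Nfasc of the L1 family, Ncam1, and the contactins Cntn1 and Cntn2. They were chosen by gene symbol, as a family of related function, with earlier results of these data known. All 7 of the 24452 gene symbols listed for the series were found, with 16 of the 35840 listed RefSeq transcripts, and all 7 genes and all 16 transcripts passed the filter on low counts.

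These proteins belong to the immunoglobulin superfamily and stand on the surface of neurons, where they bind each other and the matrix and guide the outgrowth and bundling of axons. L1 family proteins span the membrane and are tied to the spectrin cytoskeleton by ankyrins, whereas contactins are held in the outer leaflet by a lipid anchor. In the early postnatal cortex these molecules are present while thalamic and callosal axons form their connections. L1 has been studied in fetal alcohol research because ethanol can interfere with adhesion mediated by L1 in cultured cells.

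Stranded total RNA-Seq libraries of somatosensory cortex came from male C57BL/6 mice at postnatal day 7, with 3 libraries in each of 4 groups. The groups were wild-type (WT) mice given saline, WT mice given ethanol, p53 KO mice given saline and p53 KO mice given ethanol, all by intraperitoneal injection, and the cortex was taken 8 hours after the injections. The KO mice carried the Trp53tm1Tyj allele in the germ line, so every cell type of the animal lacked functional p53, the tumour suppressor encoded by Trp53. Each value is an estimated read count per RefSeq transcript, and the transcripts of a symbol were summed. In bulk tissue, fewer cells of a type and less RNA per cell cannot be told apart.

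Total counts ran from 719735 to 17066392 per library, and the lowest were KO ethanol replicate 1 (719735) and WT saline replicate 1 (1953154), the 2 libraries whose names open with L. Genes with transcripts of at least 4000 bases held 14.2% and 20.6% of the counts in WT saline replicates 2 and 3 and 18.1% in KO ethanol replicate 1, against 28.7% to 36.5% in the other 9 libraries. Levels are given as CPM, read counts scaled to the effective library size with TMM factors. Summed Trp53 CPM ran from 3.67 to 26.2 in the WT libraries and from 11.1 to 28.7 in the KO libraries. Counts over whole transcripts do not show which exons the reads came from, so this did not check the genotype labels. All 10 cortical layer markers were detected in each group, with a summed level of 311 to 815 CPM. Thalamus markers summed to 1196 CPM in WT ethanol replicate 1 (43.4 to 192 CPM elsewhere) and striatum markers to 937 CPM in WT ethanol replicate 2 (98.3 to 439 CPM elsewhere), with none of the 4 and 6 listed markers at 0 in a whole group. Choroid plexus markers ran from 0 to 4995 CPM, highest in WT ethanol replicate 1. The 6 blood markers summed to 424, 2565 and 839 CPM in WT saline libraries, above the 96.8 to 276 CPM of WT ethanol and the 61.8 to 169 CPM of KO saline. KO ethanol replicates 1, 2 and 3 had 1262, 63.4 and 58.8 CPM. The 8 neuron markers summed to 8985 to 10183 CPM in WT saline libraries, above the 5676 to 8409 CPM of WT ethanol without overlap, and to 6930 to 9539 CPM in KO saline. They summed to 11953, 5746 and 6048 CPM in KO ethanol replicates 1, 2 and 3, the first being the highest of all libraries. The neuron sum is weighted towards abundant markers such as Tubb3 (1019 to 4689 CPM over the libraries) and Stmn2 (1617 to 4086 CPM). Rbfox3 ran from 20.6 to 346 CPM, Nefl from 40.4 to 429 CPM and Nefm from 15.6 to 174 CPM. Groups were not compared marker by marker, so the order of the sums need not hold for each neuron marker. No blood or neuron marker was at 0 in a whole group. The part of these differences in the results below was not tested.

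RefSeq promoter sequences (build GRCm38.p6, 250 bases before to 50 bases after the start) were at hand for 6 of the 7 genes in 10 windows. They are shown, with a single window for each gene, for 2 pairs of genes whose levels varied together across libraries and for Nrcam. The pairs are L1cam with Cntn2 and Chl1 with Cntn1. Nfasc, which also varied with L1cam and Cntn2, is not shown. Capitals mark matches to the GC box GGGCGG on either strand, which 35.7% of all 32851 promoters hold.
L1cam, chrX:73880785-73881084, minus strand: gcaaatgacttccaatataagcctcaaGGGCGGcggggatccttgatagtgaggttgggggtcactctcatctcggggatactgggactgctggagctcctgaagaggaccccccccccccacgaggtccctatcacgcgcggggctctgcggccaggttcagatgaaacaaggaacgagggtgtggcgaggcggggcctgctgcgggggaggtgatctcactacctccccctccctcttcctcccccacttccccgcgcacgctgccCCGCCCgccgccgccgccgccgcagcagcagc
Cntn2, chr1:132542891-132543190, minus strand: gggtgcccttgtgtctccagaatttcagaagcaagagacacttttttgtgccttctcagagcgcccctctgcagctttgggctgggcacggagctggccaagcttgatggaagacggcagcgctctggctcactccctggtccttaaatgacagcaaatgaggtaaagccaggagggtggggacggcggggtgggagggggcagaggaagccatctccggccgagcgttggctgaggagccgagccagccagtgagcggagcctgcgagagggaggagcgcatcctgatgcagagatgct
Chl1, chr6:103510626-103510925, plus strand: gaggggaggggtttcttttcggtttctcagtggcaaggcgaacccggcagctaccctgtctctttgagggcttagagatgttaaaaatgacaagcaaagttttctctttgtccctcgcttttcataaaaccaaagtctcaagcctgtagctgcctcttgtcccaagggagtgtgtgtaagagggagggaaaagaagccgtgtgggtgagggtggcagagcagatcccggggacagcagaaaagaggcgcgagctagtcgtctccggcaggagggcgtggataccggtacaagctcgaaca
Cntn1, chr15:92050915-92051214, plus strand: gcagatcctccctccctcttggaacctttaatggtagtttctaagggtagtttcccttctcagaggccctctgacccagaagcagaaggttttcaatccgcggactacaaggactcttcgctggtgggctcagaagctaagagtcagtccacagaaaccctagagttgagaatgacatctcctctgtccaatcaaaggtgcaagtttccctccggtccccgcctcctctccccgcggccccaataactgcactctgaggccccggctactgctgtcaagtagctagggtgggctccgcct
Nrcam, chr12:44328635-44328934, plus strand: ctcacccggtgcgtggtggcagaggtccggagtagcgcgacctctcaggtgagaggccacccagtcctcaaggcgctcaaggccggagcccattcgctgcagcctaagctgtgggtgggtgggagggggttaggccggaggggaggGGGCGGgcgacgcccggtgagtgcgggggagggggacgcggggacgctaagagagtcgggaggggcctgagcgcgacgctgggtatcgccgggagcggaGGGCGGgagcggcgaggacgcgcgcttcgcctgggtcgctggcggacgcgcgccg
The L1cam window shown held 2 GC boxes and the Nrcam window 2, and the windows shown of Cntn2, Chl1 and Cntn1 held none. The GC content was 67% in L1cam, 61.3% in Cntn2, 53.7% in Chl1, 55.3% in Cntn1 and 74% in Nrcam, beside a median of 52.7% over all promoters. In the windows not shown it was 69.3% in L1cam (1 GC box) and 34.7% and 45% in Cntn1 (0 GC boxes). In the Nfasc windows it was 54.3% (1 GC box) and 52% (0 GC boxes). The p53 decamer consensus, searched on both strands, had no match in any of the 10 windows and a match in 8.36% of all promoters. The absence of these letters from a short window says nothing of p53 binding elsewhere.

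Per length, in the deposited quantile-normalised RPKM (reads scaled to transcript length and library size), Ncam1 had the highest median over the 12 libraries, at 73.0 RPKM. Next came L1cam at 63.0, Cntn1 at 63.0 and Chl1 at 58.7 RPKM, then Nrcam at 28, Nfasc at 10.9 and Cntn2 at 6.44 RPKM. The 4 highest genes had no stable order among themselves. Ncam1 exceeded L1cam in 8 of 12 libraries, L1cam exceeded Cntn1 in 5, and Cntn1 exceeded Chl1 in 8. The lower part of the order was steadier, since Chl1 exceeded Nrcam in 11 libraries, Nrcam exceeded Nfasc in 12 and Nfasc exceeded Cntn2 in 11. A lower median RPKM than that of Cntn2 was found for 50.7% of the tested genes, and a lower one than that of Ncam1 for 93.3%.

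L1cam encodes the founding member of the family and lies on chromosome X (mm10, 73853780 to 73880834), with a single listed transcript, NM_008478. In WT mice it stood at 362, 61.9 and 89.4 CPM under saline (replicates 1, 2 and 3) and at 355, 377 and 213 CPM after ethanol. In KO mice it stood at 333, 302 and 557 CPM under saline and at 269, 509 and 473 CPM after ethanol. WT saline replicates 2 and 3 lay below every other library, and WT saline replicate 1 lay among them, so the WT saline group overlapped with each other group. The WT means were 171 ± 166 CPM under saline and 315 ± 89.1 CPM after ethanol, and the KO means 397 ± 139 and 417 ± 130 CPM (SD, n = 3).

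Nfasc encodes neurofascin, which organises the axon initial segment, the nodes of Ranvier and, in its glial form, the flanking paranodes. It lies on chromosome 1 (132564690 to 132741797) and showed the same low pair of libraries. Its level in WT mice was 120, 18.5 and 27.9 CPM under saline and 174, 111 and 90.4 CPM after ethanol. In KO mice it was 158, 104 and 180 CPM under saline and 51.8, 178 and 187 CPM after ethanol. KO ethanol replicate 1 held only 31 Nfasc counts.

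Nrcam encodes a member of the family found at growth cones and nodes, and it acts with semaphorin receptors. The gene lies on chromosome 12 (44328885 to 44601846). WT mice had 160, 195 and 161 CPM under saline and 261, 250 and 242 CPM after ethanol. KO mice had 314, 425 and 225 CPM under saline and 252, 229 and 215 CPM after ethanol. All 3 WT saline libraries lay below the other 9, and this was the one gene of the 7 whose WT saline and WT ethanol libraries did not overlap. Such separation held for 19.5% of all tested genes in that comparison, and for 22.9% in KO saline against WT saline.

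Chl1 encodes the close homologue of L1, which takes part in the placement of cortical neurons and thalamic axons. It lies on chromosome 6 (103510876 to 103733035) with a single listed transcript, NM_007697. WT mice had 607, 901 and 569 CPM under saline and 506, 476 and 777 CPM after ethanol. KO mice had 828, 1376 and 380 CPM under saline and 229, 390 and 324 CPM after ethanol. The KO saline libraries spread widely, and KO saline replicate 3 lay inside the KO ethanol range. All KO ethanol libraries lay below all WT ethanol libraries, a separation that 12.7% of all tested genes shared in that comparison.

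Cntn1 encodes contactin 1, which binds contactin-associated proteins at axo-glial contacts. It lies on chromosome 15 (92051165 to 92341967) and followed Chl1, with 337, 685 and 466 CPM under saline and 524, 389 and 630 CPM after ethanol in WT mice. It reached 781 and 935 CPM in KO saline replicates 1 and 2 but 289 CPM in replicate 3, and the KO ethanol libraries had 413, 263 and 294 CPM. Cntn2, on chromosome 1 (132509425 to 132542940), encodes contactin 2, a binding partner of L1 on growing axons. Its WT values were 89.4, 12.3 and 30.5 CPM under saline and 72.1, 56.0 and 48.7 CPM after ethanol, and its KO values 90.1, 72.0 and 94.1 CPM and 35.1, 92.1 and 94.4 CPM. Again WT saline replicates 2 and 3 were the lowest of the 12 libraries.

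Ncam1 encodes the neural cell adhesion molecule, the main carrier of polysialic acid in the brain, and lies on chromosome 9 (49502129 to 49799393). WT saline replicate 1 stood far apart at 2457 CPM, and the other 11 libraries lay between 273 and 581 CPM. The WT means were 1046 ± 1224 CPM under saline and 470 ± 80.5 CPM after ethanol, and the KO means 526 ± 27.3 and 485 ± 89.0 CPM (SD, n = 3).

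**Figure D1:**
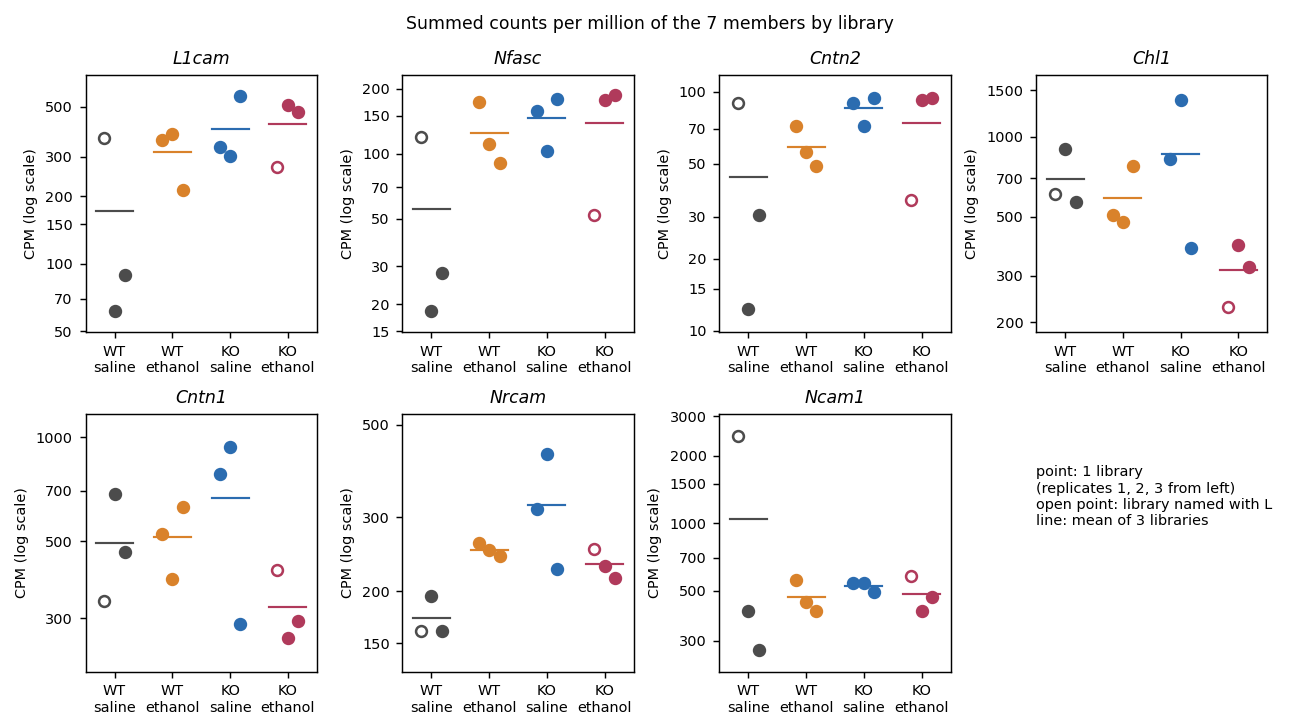
Summed CPM (log scale) of each gene in the 12 libraries, with 3 points and a mean line per group and open points for the 2 libraries named with L. L1cam, Nfasc and Cntn2 are lowest in WT saline replicates 2 and 3, Chl1 and Cntn1 are highest in KO saline replicate 2, and Ncam1 reaches 2457 CPM in WT saline replicate 1.

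Under saline, 3 of the 7 genes were higher in p53 KO than in WT mice. Nrcam rose by 0.90 on the log2 scale (SE 0.33, adjusted p = 0.185), Nfasc by 1.43 (SE 0.63, adjusted p = 0.237) and L1cam by 1.22 (SE 0.58, adjusted p = 0.263) in KO saline against WT saline mice, by edgeR's quasi-likelihood test over 14739 genes. A gene was called at an adjusted p under 0.30, the level the study used. At that level 25.8% of all tested genes were called in this comparison, and none of the 7 passed an adjusted p under 0.05, while 2 had an unadjusted p under 0.05. DESeq2 called 3 at 0.30, where it called 29.9% of all genes, and 0 at 0.05. The other values were 0.98 for Cntn2 (SE 0.56, adjusted p = 0.339), 0.43 for Cntn1, 0.32 for Chl1 and -0.99 for Ncam1 (SE 0.64, adjusted p = 0.397). The median over the 7 genes was 0.90, beside 0.04 over all tested genes.

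These differences rested on few libraries. Without WT saline replicates 2 and 3, the log2 difference was 0.15 for L1cam (adjusted p = 0.935), 0.32 for Nfasc (adjusted p = 0.868), 1.02 for Nrcam (adjusted p = 0.471) and -0.05 for Cntn2. Without WT saline replicate 1 it was 2.36 for L1cam (adjusted p = 0.0195), 2.63 for Nfasc (adjusted p = 0.0197) and 0.82 for Nrcam (adjusted p = 0.127). In that fit 5 of the 7 genes were called (50.4% of all genes). Cntn2 was called at 1.95, and Ncam1 at 0.60 against -0.99 as reported. None was called without WT saline replicate 2 (0.246% of all genes), KO saline replicate 1 or KO saline replicate 2 (0.0599% each). Without KO saline replicate 3 only Nrcam was called (9.57%). Without WT saline replicate 3 (13.7%) L1cam, Nfasc and Nrcam lost their calls, and the 1 call was Ncam1, lower in KO saline at -1.44. L1cam alone also lost its call without KO ethanol replicate 2 (adjusted p = 0.302). With the dependence of each library on length and GC content of transcripts taken out, 0 of the 7 genes were called (8.06% of all genes). The values were then 0.73 for L1cam, 0.77 for Nfasc and 0.21 for Nrcam.

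In WT mice, ethanol against saline gave 0 calls among the 7 genes, where 22.5% of all tested genes were called. No gene of the 7 had an unadjusted p under 0.05. DESeq2 called 3 (Nrcam, Nfasc and Ncam1) at 0.30, where it called 27.9% of all genes, and 0 at 0.05. The log2 differences were 1.2 for Nfasc (SE 0.63, adjusted p = 0.313), 0.89 for L1cam (SE 0.58, adjusted p = 0.409), 0.55 for Nrcam (SE 0.33, adjusted p = 0.375) and 0.44 for Cntn2. Cntn1 differed by 0.05 and Chl1 by -0.24. Ncam1 differed by -1.15 (SE 0.64, adjusted p = 0.338), and without WT saline replicate 1 its difference was 0.41. Without that replicate 3 genes were called (48.7% of all genes). They were L1cam at 2.0 (adjusted p = 0.0352), Nfasc at 2.36 (adjusted p = 0.0330) and Cntn2 at 1.39 (adjusted p = 0.0711). Without WT saline replicate 3, Ncam1 alone was called, at -1.60 (14.2% of all genes). Without KO ethanol replicate 1, Nfasc alone was called (31.6%). Both comparisons share the WT saline libraries, so their values are not independent.

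In p53 KO mice, ethanol against saline gave 0 calls among the 7 genes and 0% over all tested genes. Chl1 had a log2 difference of -1.45 (SE 0.49, unadjusted p = 0.00959, adjusted p = 0.999) and Cntn1 of -1.05 (SE 0.47, unadjusted p = 0.0427, adjusted p = 0.999), and 3.15% of all tested genes had an unadjusted p under 0.05. Without KO saline replicate 2 the Chl1 difference was -0.94 and that of Cntn1 -0.73. The other 5 genes lay between -0.47 and 0.07. DESeq2 also called 0 of the 7 genes.

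After ethanol, KO against WT mice gave 0 calls among the 7 genes and 0% over all tested genes. No gene had an unadjusted p under 0.05, and DESeq2 called 0. Chl1 differed by -0.90 (SE 0.48, adjusted p = 0.982) and Cntn1 by -0.67 (SE 0.47, adjusted p = 0.982), and the other 5 genes lay between -0.11 and 0.41. For the interaction of Genotype and Treatment, 0 of the 7 genes were called, against 11.1% of all tested genes. Nrcam came nearest at -1.02 (SE 0.47, unadjusted p = 0.0467, adjusted p = 0.322). It was the gene that DESeq2 called at 0.30 (17.9% of all genes), while DESeq2 called 0 at 0.05. Without WT saline replicate 1, 4 of the 7 interactions were called (33.8% of all genes), and without KO saline replicate 3, 2 were (12.1%).

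**Figure D2:**
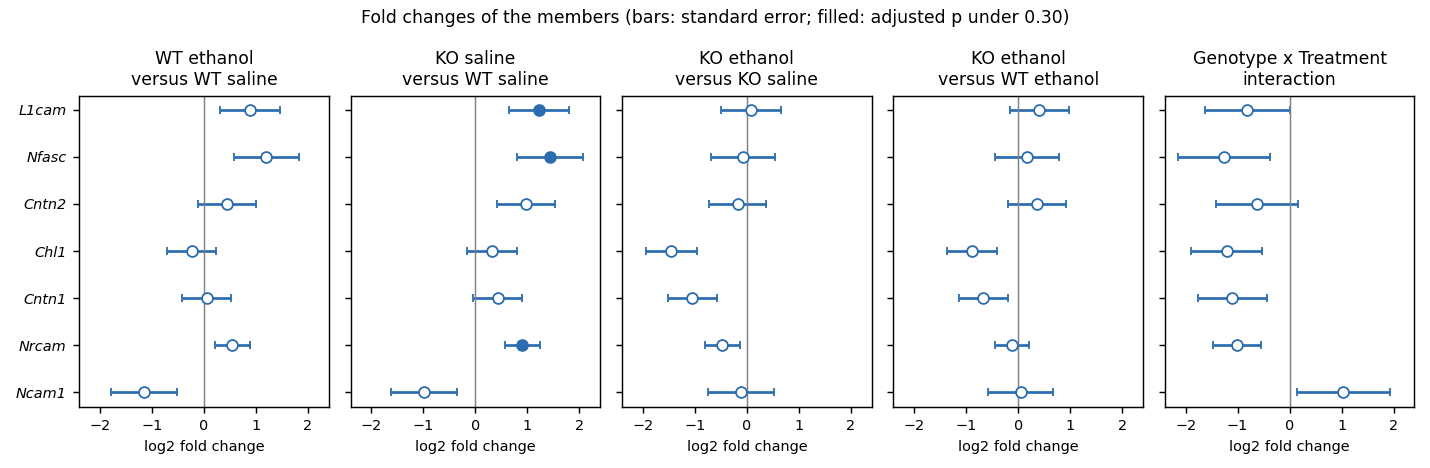
Log2 fold changes of the 7 genes in the 5 comparisons, with bars of 1 standard error and filled points for an adjusted p under 0.30. The 3 filled points are L1cam (1.22), Nfasc (1.43) and Nrcam (0.90) in KO saline against WT saline.

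The 7 genes fell into patterns across the 12 libraries. Log2 CPM of L1cam, Nfasc and Cntn2 varied together, with Pearson's r of 0.95 for L1cam and Nfasc, 0.92 for L1cam and Cntn2 and 0.96 for Nfasc and Cntn2. Chl1 and Cntn1 also varied together (r = 0.81), and each had a negative r with those 3 genes, from -0.17 for Chl1 and Cntn2 to -0.50 for L1cam and Cntn1. These values are descriptions over 12 libraries that include the 4 groups and differ in depth and in the share of long transcripts. The transcripts of L1cam, Nfasc and Cntn2 had a GC content of 54.3%, 55.1% and 55.9%, and those of Chl1 and Cntn1 of 39.9% and 44.3%, beside a median of 50.4% over all tested genes.

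Among 10362 genes with a mean log2 CPM of at least 3, those most like L1cam were Ranbp10 (r = 0.99) and Mapkbp1 (r = 0.99). Those most like Nfasc were Zzef1 (r = 0.98) and Rai1 (r = 0.98), and those most like Cntn2 were Celsr2 (r = 0.99) and Tnks1bp1 (r = 0.98). Chl1 was nearest to St8sia4 (r = 0.99), which encodes a polysialyltransferase that modifies NCAM, and to Ulk2 (r = 0.97). Cntn1 was nearest to Tmem56 (r = 0.96) and Camsap2 (r = 0.95), Nrcam to Gcc2 (r = 0.95) and Acadsb (r = 0.92), and Ncam1 to Msl1 (r = 0.94) and Nfia (r = 0.93). The transcripts of all 14 neighbours were longer than the median of 2964 bases over tested genes, at 4593 to 11150 bases.

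The transcripts of the 7 genes themselves were long, at 5092 bases for Nrcam to 7562 bases for Chl1. Over all tested genes, the log2 difference between KO saline and WT saline rose with transcript length, from a median of -1.15 in the shortest decile to 0.71 in the longest. In WT ethanol against WT saline the same medians were -0.94 and 0.66. In KO saline against WT saline, L1cam (1.22) and Nfasc (1.43) lay above 1.18, the 75th percentile of the longest decile, and the other 5 genes lay below it. Ncam1 lay below the 25th percentile of the decile around 5404 bases in both comparisons, at -1.15 against 0.02 and at -0.99 against 0.07.

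**Figure D3:**
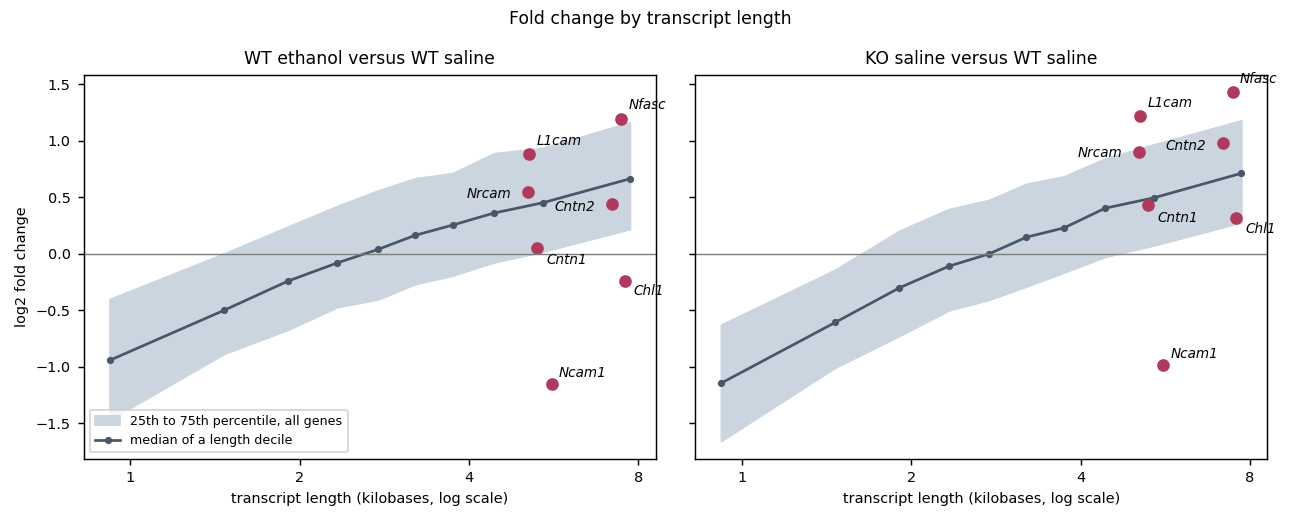
Log2 fold change against transcript length (kilobases, log scale) for deciles of all genes with a length (line: median, band: 25th to 75th percentile) and for the 7 genes (points). The medians run from -0.94 to 0.66 in WT ethanol against WT saline and from -1.15 to 0.71 in KO saline against WT saline, and the 7 genes lie in the range of long transcripts.

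Where a gene has several listed transcripts, the deposited counts were divided among them by the authors' quantification. Of the 4 Nfasc transcripts, NM_182716 differed by 3.19 on the log2 scale in WT ethanol against WT saline (SE 0.92, adjusted p = 0.146) and by 3.41 in KO saline against WT saline (SE 0.93, adjusted p = 0.137). At an adjusted p under 0.30, 21.5% and 23.8% of the 21715 tested transcripts were called in these comparisons. NM_182716 had 19.0, 1.45 and 6.81 CPM under saline and 108, 61.2 and 64.7 CPM after ethanol in WT mice, and 87.5, 63.6 and 121 CPM and 3.86, 119 and 93.8 CPM in KO mice. It took 15.9%, 7.61% and 23.6% of the Nfasc count in WT saline, and between 54.8% and 72.1% in the WT ethanol and KO saline libraries. KO ethanol replicate 1 again stood with WT saline, at 7.61%, and the other KO ethanol libraries at 67.1% and 50.7%.

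The mean share of NM_182716 was 63.1% ± 8.67 in WT ethanol and 61.7% ± 6.04 in KO saline against 15.7% ± 7.99 in WT saline (SD, n = 3). An exact two-sided permutation test gave p = 0.1 for each, the smallest that 3 libraries against 3 allow, and 0.473 after adjustment over 52 shares compared. The other Nfasc transcripts were not called in these comparisons, and NM_001160316 held 46.3% to 55.6% of the count in WT saline and 12.7% to 24.7% in WT ethanol and KO saline. The call for NM_182716 was lost without WT saline replicate 2 in both comparisons (adjusted p = 0.325 and 0.326), without WT ethanol replicate 1 (adjusted p = 0.388) and without KO saline replicate 1 (adjusted p = 0.356). The files place NM_182716 and NM_001160317 between the same ends, 132564690 and 132741797, so they differ only inside the gene. All 4 shares of Nfasc were equal within 0.01 percentage points in WT saline replicate 2 (101 counts) and KO ethanol replicate 1 (31 counts), and all 3 shares of Cntn1 in WT saline replicate 1 and KO ethanol replicate 1. What set these equal shares was not tested.

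**Figure D4:**
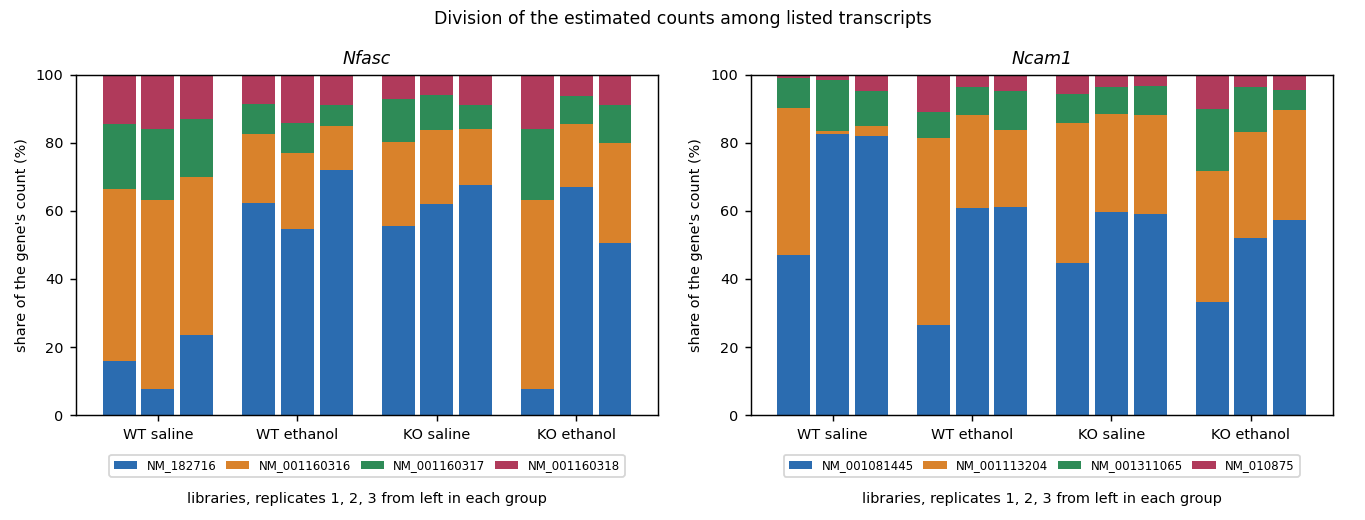
Share of the summed count (%) given to each listed transcript of Nfasc and Ncam1, as stacked bars for the 12 libraries. NM_182716 has 7.61% to 23.6% of the Nfasc count in WT saline and 54.8% to 72.1% in WT ethanol and KO saline, and NM_001113204 has 0.624% and 2.96% of the Ncam1 count in WT saline replicates 2 and 3.

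Nrcam transcript NM_176930 held 65.5% of the Nrcam count and rose in WT ethanol against WT saline by 0.69 (SE 0.33, adjusted p = 0.288) and in KO saline against WT saline by 1.02 (SE 0.34, adjusted p = 0.163). The first of these calls held in 5 of 14 alternatives and the second in 11 of 14. Without WT saline replicate 2 their adjusted p was 0.492 and 0.365. Ncam1 transcripts NM_001081445 (-1.37, SE 0.53, adjusted p = 0.213) and NM_001311065 (-1.25, SE 0.61, adjusted p = 0.294) fell in WT ethanol against WT saline, and NM_001311065 fell in KO saline against WT saline (-1.21, SE 0.61, adjusted p = 0.294). Without WT saline replicate 1 these became -0.41, -0.16 and -0.10, and none was called. Ncam1 transcript NM_001113204 held 43.4%, 0.624% and 2.96% of the count in WT saline, and 22.4% to 55.0% in the other 9 libraries.

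For the interaction, 12.1% of all tested transcripts were called, and 3 of the 16 transcripts were among them. They were Nfasc NM_182716 at -3.47 (SE 1.22, adjusted p = 0.234), Nrcam NM_176930 at -1.2 (SE 0.47, adjusted p = 0.269) and Cntn1 NM_001159647 at -1.75 (SE 0.65, adjusted p = 0.255). Of 14 alternatives, 8 kept the call for NM_182716, 5 that for NM_176930 and 5 that for NM_001159647, and all 3 calls were lost without WT saline replicate 2, WT ethanol replicate 1, KO saline replicate 1 or 2 or KO ethanol replicate 1. Cntn1 NM_001159647 had 49.6, 112 and 98.4 CPM under saline and 127, 85.2 and 126 CPM after ethanol in WT mice, and 197, 224 and 62.4 CPM and 59.8, 63.6 and 61.6 CPM in KO mice.

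Partners of these molecules were described by 6 lists with 74 genes, all of them tested. In WT ethanol against WT saline 19 were higher and 2 lower, which is 28.4% of the lists against 22.5% of all genes. When only the 2 groups compared were fitted, 0 of 73 list genes were called (0.278% of all genes), and limma called 2 with RPKM + 1 (2.42% of all genes) and 0 with RPKM + 0.1 (1.26%). In KO saline against WT saline 16 were higher and 1 lower, which is 23.0% against 25.8%. Here 11 were higher and 1 lower with only the groups compared (18.1% of all genes), and limma called 5 and 3, all higher (2.84% and 1.74%). The median log2 difference of the 74 genes was 0.42 and 0.40, beside 0.06 and 0.04 over all genes. With the length and GC trend removed it was -0.14 and 0.02, beside -0.19 and -0.18 over all genes in that fit. In that fit 6 were higher and 6 lower (13% of all genes), and 3 were higher and 2 lower (8.06%). In WT ethanol against WT saline, 37 were higher and 3 lower without WT saline replicate 1 (48.7% of all genes). Without WT saline replicate 2, 2 were higher (1.3%), and without WT ethanol replicate 1, 1 was (0.476%). Without WT ethanol replicate 2, 10 were higher and 2 lower (5.54%). In KO saline against WT saline, 36 were higher and 4 lower without WT saline replicate 1 (50.4% of all genes). Without WT saline replicate 2, 1 was higher (0.246%), and without WT saline replicate 3, 9 were (13.7%). Without KO saline replicate 3, 9 were higher and 1 lower (9.57%). None was called without KO saline replicate 1 or 2 (0.0599% each). By edgeR and by DESeq2 none of the 74 was called in KO ethanol against KO saline (4 with an unadjusted p under 0.05 in edgeR) or in KO ethanol against WT ethanol (9 with an unadjusted p under 0.05).

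For the interaction of Genotype and Treatment, 15 of the 74 genes were called, 1 positive and 14 negative, which is 20.3% against 11.1% of all genes. A negative interaction means that the difference of ethanol from saline was lower in p53 KO than in WT mice. The median was -0.69, beside -0.11 over all genes. Once the length and GC trend was removed it was 0.27, beside 0.31 over all genes in that fit, with no list gene called (0.17% of all genes). Of the negative calls, 6 were other contactins and contactin-associated proteins, 4 were ligands and co-receptors, 3 were other immunoglobulin adhesion genes and 1 was Ncam2 (-2.68, adjusted p = 0.250). Ptprz1, a receptor phosphatase that binds contactin 1, had 120, 274 and 227 CPM under saline and 614, 349 and 427 CPM after ethanol in WT mice. In KO mice it had 554, 699 and 228 CPM under saline and 241, 222 and 233 CPM after ethanol, so the WT ethanol libraries lay above the WT saline libraries while the KO groups differed in the opposite direction, with 1 KO saline library inside the KO ethanol range. Its interaction was -2.25 (SE 0.65, adjusted p = 0.250), that of Tnr -2.95 (SE 0.73, adjusted p = 0.250) and that of Cntnap5b -3.78 (SE 0.84, adjusted p = 0.231). The value of Cntnap5b rests on few reads, with 1 count in KO ethanol replicate 1. None of the 74 was called with limma or with the name letter as a covariate. The same held without WT saline replicate 2, WT ethanol replicate 1, KO saline replicate 1 or 2 or KO ethanol replicate 1. At most 0.233% of all genes were called in these settings. Without WT saline replicate 1, 2 were positive and 34 negative (33.8% of all genes). Between 4 and 8 were called, all negative, without WT saline replicate 3, WT ethanol replicate 2 or 3 or KO ethanol replicate 2. Of all genes, 0.745% to 7.59% were called in these fits.

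Of the 11 other contactins and contactin-associated proteins, 6 were higher in WT ethanol and 4 in KO saline than in WT saline. Of all tested genes, 22.5% were called in the first of these comparisons and 25.8% in the second. In this and the following lists, counts near these shares do not set a list apart from all genes. Cntnap5b, a neurexin-like protein, stood at 1.41 ± 0.337 CPM in WT saline libraries, 10.2 ± 4.95 CPM after ethanol and 6.85 ± 3.49 CPM in KO saline (SD, n = 3), with log2 differences of 2.79 (adjusted p = 0.104) and 2.21 (adjusted p = 0.176). Cntn5, a contactin of the auditory pathway, was 1.44 (adjusted p = 0.208) and 2.08 (adjusted p = 0.160) higher. With the length and GC trend removed Cntnap5b stayed called at 2.37 and 1.72, and Cntn5 stood at 0.96 (adjusted p = 0.318) and 1.57 (adjusted p = 0.224). Cntnap5b had 2, 9 and 21 counts in the WT saline libraries, so its differences rest on few reads.

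Of the 10 ankyrin, spectrin and membrane linker genes, 2 were called higher in WT ethanol, Ezr at 1.54 (adjusted p = 0.204) and Rdx at 0.72 (adjusted p = 0.288), and 1 in KO saline, the ankyrin gene Ank1 at 1.75 (adjusted p = 0.213). Ezr had 138, 44.1 and 27.5 CPM in WT ethanol libraries against 17.0, 24.2 and 30.1 CPM in WT saline, so the groups overlapped and WT ethanol replicate 1, the library highest in thalamus and choroid plexus markers, stood apart. Without it the difference was 0.56 (adjusted p = 0.618). Rdx, at 116, 68.5 and 94.0 CPM against 39.0, 78.2 and 51.2 CPM, also overlapped, and its difference was 0.46 (adjusted p = 0.370) without WT saline replicate 1. Of the 10 genes of polysialic acid and NCAM signaling, 3 were called higher in WT ethanol: Ncam2, the NCAM paralogue, at 1.65 (adjusted p = 0.208), the receptor gene Gfra1 at 1.64 (adjusted p = 0.239) and Fgfr1 at 1.43 (adjusted p = 0.265). Gfra1 had 105, 16.9 and 43.0 CPM in WT ethanol libraries against 4.11, 18.5 and 28.7 CPM in WT saline, and Fgfr1 82.4, 26.3 and 15.6 CPM against 18.0, 8.63 and 19.9 CPM. For both genes the groups overlapped and WT ethanol replicate 1 was the highest library. Without it Gfra1 differed by 0.73 (adjusted p = 0.676) and Fgfr1 by 0.43 (adjusted p = 0.805). In KO saline 1 was higher, Ncam2 at 1.48 (adjusted p = 0.200). Rdx, Ncam2, Gfra1, Fgfr1 and Ank1 lost these calls when the length and GC trend was removed.

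Of the 16 extracellular ligands and co-receptors, 4 were higher in WT ethanol and 6 in KO saline. Tnr, the matrix protein tenascin-R that binds contactins, stood at 6.75 ± 2.57 CPM in WT saline libraries, 28 ± 21.1 CPM after ethanol and 27.4 ± 8.61 CPM in KO saline (SD, n = 3), with log2 differences of 2.04 (adjusted p = 0.153) and 2.0 (adjusted p = 0.163). Both calls were lost with the trend removed (adjusted p = 0.390 and 0.403), and the first difference was 1.2 (adjusted p = 0.519) without WT ethanol replicate 1. Of the 6 sheddases, proteases that cut such molecules from the surface, Bace2 was lower in both comparisons, at -1.72 (adjusted p = 0.208) and -1.59 (adjusted p = 0.191). These became -1.14 (adjusted p = 0.401) and -1.0 (adjusted p = 0.471) without WT saline replicate 3.

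Of the 21 other neuronal immunoglobulin adhesion genes, 4 were higher and 1 lower in WT ethanol and 4 were higher in KO saline. Sdk2, a sidekick adhesion molecule of retinal synapses, had 1, 1 and 11 counts in WT saline, so its log2 differences of 3.81 (adjusted p = 0.0830) and 3.89 (adjusted p = 0.127) rest on very few reads. Dscam, which mediates self-avoidance of neurites, was 1.60 (adjusted p = 0.184) and 1.52 (adjusted p = 0.176) higher, and Pvrl3 was lower in WT ethanol at -1.29 (adjusted p = 0.209). In WT ethanol against WT saline, Dscam stood at 0.99 (adjusted p = 0.519) without WT ethanol replicate 1 and Pvrl3 at -0.82 (adjusted p = 0.498) without WT saline replicate 2.

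**Figure D5:**
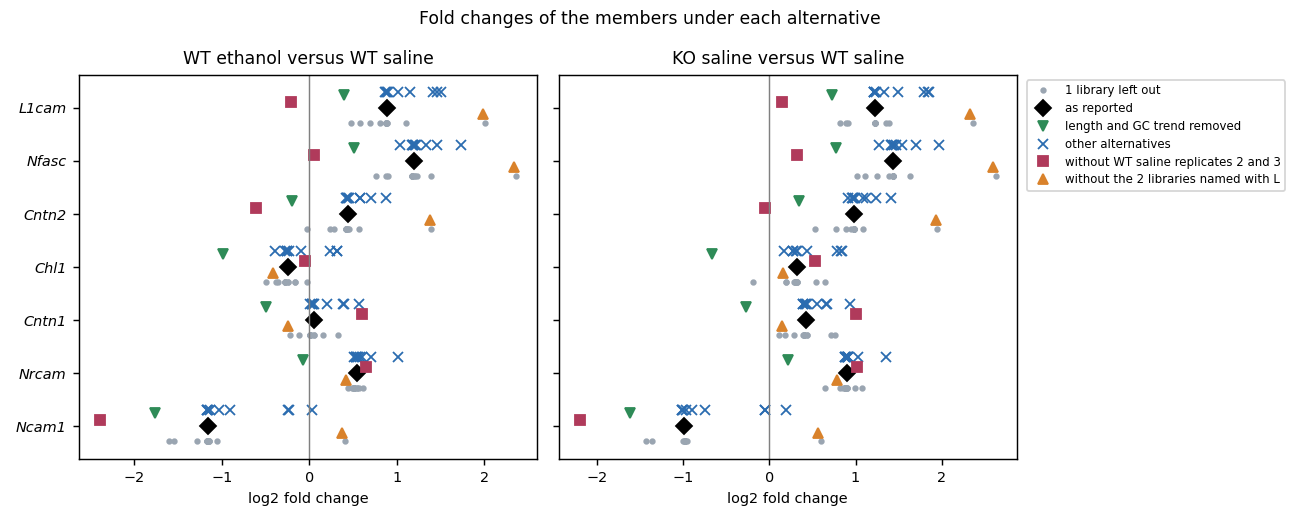
Log2 fold changes of the 7 genes as reported (diamonds) and under each alternative in WT ethanol against WT saline and in KO saline against WT saline. L1cam, Nfasc and Cntn2 lie near 0 or below it without WT saline replicates 2 and 3 and highest without WT saline replicate 1 or without both libraries named with L, and Ncam1 changes sign without those libraries.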

How the data were processed

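The authors removed reads of low quality, mapped the rest to mm10 (GRCm38) by TopHat with Bowtie2, and counted RefSeq transcripts with Partek Flow, whose version and settings are not given in the sources used here. They deposited estimated counts per transcript and library, unscaled and partly fractional, and RPKM values that are quantile-normalised. Counts were summed per symbol, rounded and fitted in edgeR 4.0.16 (R 4.3.3) with TMM factors, the default low-count filter and 1 mean per group over the 12 libraries, and a second fit used transcripts. CPM were scaled with the TMM factors. P-values are two-sided and were adjusted by Benjamini-Hochberg over every feature of a comparison. Replicates are numbered in accession order, and the labels do not say whether they are separate litters. Part of the cortices were laser-microdissected per the study's methods, which the labels do not assign to libraries. Alternatives used DESeq2 1.42.0, limma 3.58.1 on log2(RPKM + 1) and log2(RPKM + 0.1), other scalings and filters, the name letter as a covariate, splines with 5 degrees of freedom on length and GC content, and left-out libraries. The fit without WT saline replicates 2 and 3 was chosen after seeing the data. Models were tested on simulated data. The named genes were the 7 members, every transcript with at least 5% of a member's count, in each list the 3 genes with the smallest p in a comparison (not every one is reported), and the 2 nearest genes by Pearson's r. The members and lists were chosen with earlier results of these data known. Lengths and GC content came from GENCODE transcripts of GRCm38. Tables and figures used Python 3.11.15.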

Additional observations from a re-analysis of the deposited data

Results flagged for a closer look

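For 3 of the 16 transcripts of these genes, the interaction of Genotype and Treatment had an adjusted p under 0.30 by edgeR's quasi-likelihood test, where 12.1% of all tested transcripts did. The interaction was -3.47 on the log2 scale for Nfasc NM_182716 (adjusted p = 0.234), -1.20 for Nrcam NM_176930 (adjusted p = 0.269) and -1.75 for Cntn1 NM_001159647 (adjusted p = 0.255). KO ethanol replicate 1, the library with the fewest counts, held 2.36 estimated counts of Nfasc NM_182716, 105 of Nrcam NM_176930 and 36.6 of Cntn1 NM_001159647. Without it the interactions were -2.97 (adjusted p = 0.360), -1.29 (adjusted p = 0.403) and -1.71 (adjusted p = 0.454). They were -3.15 (adjusted p = 0.440), -1.14 (adjusted p = 0.461) and -1.63 (adjusted p = 0.455) without WT ethanol replicate 1, and none of the 3 was called without WT saline replicate 2 or KO saline replicate 1 or 2 either. Over all genes, the same term was called for 11.1% as reported, for 0% with the name letter as a covariate or without WT ethanol replicate 1 or KO saline replicate 1 or 2, and for 0.233% without KO ethanol replicate 1.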

How the results depend on the processing

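No paired analysis was possible because the labels give the groups no shared replicate numbers. Depth limits what could be seen in KO ethanol replicate 1, where the 7 genes had 21 to 348 counts. Of 833 refits of the 35 log2 differences of the 7 genes, 706 kept their direction and side of the threshold, 46 gained a call, 27 lost it and 54 changed sign. The causes of these changes were not tested. An alternative that leaves out libraries shows only that a value depends on those libraries. Scaling without TMM factors moved the median of all genes from 0.06 to 0.49 in WT ethanol against WT saline and from 0.04 to 0.49 in KO saline against WT saline, and removal of the length and GC trend moved it to -0.19 and -0.18.

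In WT ethanol against WT saline, 0 genes were called as reported. With DESeq2 (27.9% of all genes) or without the 2 libraries named with L (55.4%), 3 were called. The number was 2 without TMM factors (27.5%) or with at least 10 counts in every library (27.4%). It was also 2 with the name letter (22%) or with the trend removed (13%). In KO saline against WT saline, 3 were called as reported and 5 without the libraries named with L (where 56.4% of all genes were called). The number was 1 with either limma fit (2.84% and 1.74%) or with only the groups compared (18.1%). It was 0 with the trend removed (8.06%). For the interaction, 0 became 3 without TMM factors (13.6% of all genes) or with at least 10 counts in every library (24.5%). It became 4 without the libraries named with L (28.9%) and 1 with DESeq2 (17.9%). The fit without WT saline replicates 2 and 3 left 1 WT saline library, and its calls are not listed here. Leaving out 1 library at a time gave 0 to 3, 0 to 5 and 0 to 4 calls in these comparisons, and 0 in the other 2. The order by level per length placed 4 of the 7 genes at the same rank when CPM per kilobase of the longest transcript was used.

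Removal of the trend also moved the median of all genes, to 0.17 in KO ethanol against KO saline and 0.18 in KO ethanol against WT ethanol. For the interaction that median became 0.31, so a change of sign can follow this shift of all genes. Sign changes with the trend removed were -0.076 for Nrcam, -0.50 for Cntn1 and -0.20 for Cntn2 in WT ethanol against WT saline. They were 0.22 for Nrcam, 0.10 for Nfasc and 0.59 for Ncam1 in KO ethanol against KO saline, -0.67 for Chl1 and -0.27 for Cntn1 in KO saline against WT saline, and 0.50 for Nrcam and 0.086 for Cntn1 in KO ethanol against WT ethanol. For the interaction they were 0.64 for Chl1, 0.29 for Nrcam, 0.35 for Cntn1 and 0.18 for Cntn2. Without the libraries named with L they were 0.38 for Ncam1 and -0.25 for Cntn1 in WT ethanol against WT saline, 0.29 for Nfasc and 0.11 for Cntn2 in KO ethanol against KO saline, 0.56 for Ncam1 in KO saline against WT saline, -0.11 for Ncam1 in KO ethanol against WT ethanol and -0.67 for its interaction. Without WT saline replicates 2 and 3 they were -0.20 for L1cam and -0.61 for Cntn2 in WT ethanol against WT saline, -0.047 for Cntn2 in KO saline against WT saline, and 0.27 for L1cam and 0.42 for Cntn2 in the interaction. With the name letter, Ncam1 stood at 0.032, 0.19, -0.44 and -0.63 in WT ethanol against WT saline, KO saline against WT saline, KO ethanol against WT ethanol and the interaction, and L1cam at -0.089 in KO ethanol against KO saline. Chl1 stood at 0.24 without TMM factors and at 0.31 and 0.32 with limma in WT ethanol against WT saline, and Ncam1 at -0.0016 without TMM factors in KO ethanol against WT ethanol.

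Leaving out 1 library at a time changed the sign of 12 of the 35 differences. The ranges in WT ethanol against WT saline were -1.60 to 0.41 for Ncam1, -0.22 to 0.32 for Cntn1 and -0.022 to 1.39 for Cntn2. In KO ethanol against KO saline they were -0.091 to 0.43 for L1cam, -0.31 to 0.31 for Nfasc, -0.27 to 0.022 for Ncam1 and -0.37 to 0.13 for Cntn2. In KO saline against WT saline they were -0.19 to 0.64 for Chl1 and -1.44 to 0.60 for Ncam1. In KO ethanol against WT ethanol they were -0.048 to 0.54 for Nfasc and -0.11 to 0.21 for Ncam1, and for the interaction -0.51 to 1.48 for Ncam1.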
